A study of Mus musculus with 16 samples.

Results

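The 33 genes described here encode the proteases, cofactors, inhibitors and receptors of blood coagulation and fibrinolysis, the systems that form and dissolve clots. They were chosen by name, and each non-control probe whose gene name on the array is on that list was taken. The array carried 52 probes for them among 41174 probes for 28090 gene names. Testing required a probe that stood well above background in 4 or more of the 24 scanned channels. All 33 genes were among the 16425 that passed, and for 28 of them the probe used was well above background in all 24 channels. F13a1 and Tfpi passed only through knockout channels: neither was well above background in any of the 4 wild-type channels of any comparison, so both had to differ from wild type to be tested at all. Plau was well above background in 1 of the 4 wild-type channels of each comparison, so it too needed knockout channels to pass.

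RNA came from whole mouse liver and was hybridised to 2-colour Agilent arrays, with 16 arrays forming 8 experiments of 2 arrays each. The dyes were swapped between the arrays of an experiment, and each experiment counts as 1 replicate here. Experiments 1 and 4 set Nrf2-/- livers (Nrf2 knockout) against wild type. Experiments 2 and 5 set Atg7F/F:Mx1-Cre livers (Atg7 knockout) against wild type. Experiments 3 and 6 set Atg7F/F:Mx1-Cre:Nrf2-/- livers (double knockout) against wild type, and experiments 7 and 8 set the double knockout directly against the Atg7 knockout. Floxed Atg7 mice, with and without Nrf2, and their controls received pIpC, an inducer of interferon, at 8 weeks of age, and RNA was taken 4 weeks later. The protocol given for the arrays words this as pIpC treatment lasting 4 weeks. The Mx1 promoter responds to interferon in hepatocytes and also in blood and other cells, so Atg7 loss was not limited to 1 cell type, whereas Nrf2 was absent from the whole animal. The labels do not say whether the wild-type controls carried the floxed allele or Cre, nor whether each experiment used separate animals. The p-values therefore measure the spread between these experiments only. The 6 wild-type values of a gene may come from fewer than 6 animals, so they are not counted as separate livers below.

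Most coagulation factors are made by hepatocytes and secreted as inactive precursors. Tissue factor with factor VII starts the extrinsic pathway, the contact proteins factor XII, plasma kallikrein and kininogen start the intrinsic pathway, and both lead through factor X to thrombin, which cuts fibrinogen into fibrin. Antithrombin, heparin cofactor II and the protein C system restrain thrombin, and plasmin, formed from plasminogen by its activators, dissolves the clot. Thrombomodulin, the endothelial protein C receptor, tissue-type plasminogen activator and von Willebrand factor are classically endothelial products. Atg7 is needed for autophagy, and Nrf2 is a transcription factor that turns on antioxidant genes and that becomes more active in autophagy-deficient liver.

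The Nrf2 gene, Nfe2l2, was lower by log2 ratios of -3.88 in the Nrf2 knockout and -3.71 in the double knockout and higher by 1.20 in the Atg7 knockout. A second Nfe2l2 probe gave -3.04, -3.04 and 1.02 in the same order, whereas a dimmer probe gave -0.06, 0.06 and -0.02. The Atg7 probe used was lower by -0.80 in the Atg7 knockout and -0.73 in the double knockout. A second, dimmer Atg7 probe gave -0.08 and -0.03. Whether either lies in the deleted part of the gene was not determined. Between 43.4% and 57.2% of probes were well above background per channel. Xist and Y-linked transcripts separated experiments 1 to 3 (wild-type Xist log2 signal 5.76 to 5.8) from experiments 4 to 6 (11.15 to 11.21). Each comparison with wild type holds 1 experiment of each set, and within every experiment both livers had the same pattern.

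Log2 ratios are knockout over partner, so a ratio of 1 is a 2-fold higher signal, and a gene was called when limma's adjusted p was below 0.05 over all genes tested. In Nrf2 knockout liver 0 of the 33 genes were called, against 0.0122% of all tested genes, and 1 of the 33 had an unadjusted limma p below 0.05. Their log2 ratios lay between -0.26 and 0.27 around a median of 0.01. In Atg7 knockout liver 25 of the 33 genes were called, 18 lower and 7 higher, where 39.7% of all tested genes were called, 16.3% lower and 23.4% higher. The median log2 ratio of the 33 was -0.53, and that of all tested genes was 0.003. In double-knockout liver 20 were called, 15 lower and 5 higher, against 37.4% of all tested genes (16% lower, 21.4% higher). F13a1, tested only through its knockout channels, was among the 5. The median of the 33 was -0.17. Between the double and the Atg7 knockout, hybridised directly, 9 were called, 6 higher and 3 lower in the double knockout, against 14.8% of all tested genes (6.75% higher, 8.06% lower). The comparisons share genotypes with one another, so their values are set side by side and not counted as separate evidence.

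**Figure D1:**
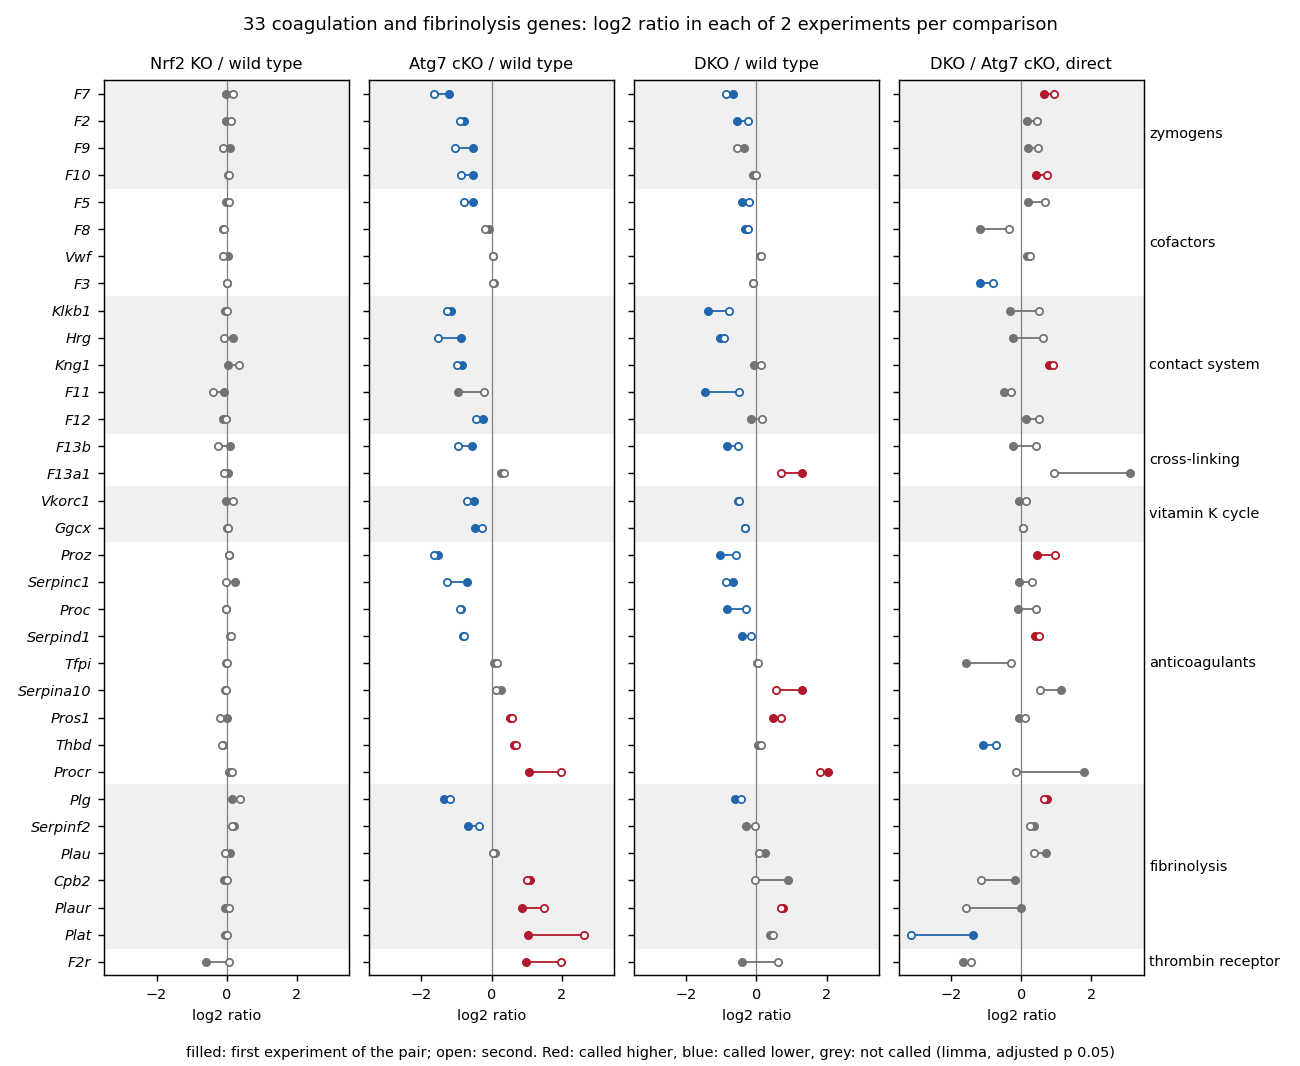
Log2 ratio of each of the 33 genes in the 2 experiments of each comparison, ordered by role, with a filled point for the first experiment and an open point for the second. Red and blue mark genes called higher and lower by limma, grey those not called. No gene is called in the Nrf2 knockout column, while 18 genes are blue and 7 red in the Atg7 knockout column.

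The order of the text follows the role of the genes. In bulk liver, fewer cells of a type and less RNA per cell cannot be told apart. All 6 hepatocyte markers (Alb, Ttr, Apoa1, Tat, Tdo2, Cps1) were detected, and 4 of them were called lower in the Atg7 knockout (median over the 6 -1.28) and 4 in the double knockout (median -1.14). Macrophage markers moved the other way, with 7 of 8 called higher in the Atg7 knockout (median 1.30) and 8 of 8 in the double knockout (median 1.40). Of 6 stellate cell markers, 4 were called higher in each of these genotypes (medians 0.42 and 0.73), and of 3 neutrophil markers tested, out of 6 listed, 2 were (medians 0.65 and 1.94). Lymphocyte markers were called higher for 1 of 6 in the Atg7 knockout and 3 of 6 in the double knockout (medians 0.08 and 0.20), and cholangiocyte markers for 2 of 4 in each (medians 0.35 and 0.23). None of these 4 lists had a marker called lower against wild type. Of all tested genes, 23.4% were called higher and 16.3% lower in the Atg7 knockout, and 21.4% and 16% in the double knockout. The part of these marker shifts in the results below was not tested.

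The protease precursors F7, F2, F9 and F10 were all called lower in the Atg7 knockout. F7, factor VII, which binds tissue factor, had log2 signals of 8.35 and 8.27 in the Atg7 knockout of experiments 2 and 5, against 9.55 and 9.90 in wild type on the same arrays. Its Nrf2 knockout signals were 9.73 and 10.39 and its double-knockout signals 9.15 and 9.01. The Atg7 knockout signals were thus lowest, the double knockout next, and neither overlapped the 6 wild-type values of 9.55 to 10.21. The log2 ratio was -1.42 ± 0.12 (SE, n = 2, adjusted p = 0.00147) in the Atg7 knockout and -0.76 ± 0.12 (adjusted p = 0.00738) in the double knockout. The latter call was lost without experiment 6.

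F2, prothrombin, fell by 0.78 and 0.90 in the 2 Atg7 knockout experiments and by 0.56 and 0.23 in the 2 double-knockout experiments. The mean ratios were -0.84 ± 0.09 (SE, n = 2, adjusted p = 0.00272) and -0.40 ± 0.09 (adjusted p = 0.0253), and the double-knockout call was lost in 5 of 15 alternatives, among them the deposited log ratios, slide as a block and the omission of experiment 3. F9, factor IX, the protease missing in haemophilia B, fell by 0.52 and 1.03 in the Atg7 knockout (mean -0.78, adjusted p = 0.0101, lost without experiment 5). In the double knockout its ratios of -0.34 and -0.56 gave a mean of -0.45 and an adjusted p of 0.0526, and F9 was called lower there in 9 of 15 alternatives, among them the deposited log ratios (-0.63), the mean over probes (-0.42), slide as a block (-0.33) and the set of experiments as a block (-0.45). F10, factor X, where both pathways meet, fell by 0.54 and 0.86 in the Atg7 knockout (mean -0.70 ± 0.09, SE, n = 2, adjusted p = 0.00351). Its double-knockout ratios of -0.11 and -0.001 had a mean of -0.05 with an adjusted p of 0.655. F10 thus passed the test against wild type in the Atg7 knockout and not in the double knockout, and the direct arrays, described further on, test that difference.

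Among the cofactors, F5, factor V, the partner of factor X, fell by 0.53 and 0.78 in the Atg7 knockout (mean -0.66, adjusted p = 0.004) and by 0.42 and 0.20 in the double knockout (mean -0.31, adjusted p = 0.0387). The double-knockout call of F5 was lost in 8 of 15 alternatives, among them the deposited log ratios, slide as a block and the omission of experiment 1, 3, 4 or 6. F8, factor VIII, the protein missing in haemophilia A and made largely by liver endothelium, had ratios of -0.08 and -0.20 in the Atg7 knockout, which did not pass the test (adjusted p = 0.103). It fell by 0.32 and 0.23 in the double knockout (mean -0.28, adjusted p = 0.0154, lost with slide as a block and without experiments 3 or 6). Vwf, the endothelial carrier of factor VIII, lay between -0.10 and 0.13 in all 6 experiments with wild type and was called in none of the comparisons. F3, tissue factor, was dim, with log2 signals of 5.99 to 6.35 in every knockout liver and 6.04 to 6.28 in wild type. It was not called against wild type in any genotype.

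The contact system also fell in part. Klkb1, plasma prekallikrein, had log2 signals of 8.35 and 7.87 in the Atg7 knockout and 7.89 and 8.38 in the double knockout, against 8.95 to 9.55 over the 6 wild-type values, with no overlap. Its log2 ratios were -1.20 ± 0.14 (SE, n = 2, adjusted p = 0.00326) and -1.08 ± 0.14 (adjusted p = 0.00453), and both calls held under each alternative run. Hrg, histidine-rich glycoprotein, a plasma protein that binds heparin and plasminogen, fell by 0.86 and 1.53 in the Atg7 knockout (adjusted p = 0.00499) and by 1.05 and 0.91 in the double knockout (adjusted p = 0.00915, lost without experiments 3 or 6). Kng1, high-molecular-weight kininogen, fell by 0.84 and 0.98 in the Atg7 knockout (mean -0.91 ± 0.10, SE, n = 2, adjusted p = 0.00245). In the double knockout its ratios were -0.08 and 0.12, with a mean of 0.02. Mouse liver also transcribes the closely related Kng2, which was itself lower by -0.96 in the Atg7 knockout and -0.63 in the double knockout, and cross-hybridisation between the probes was not tested. F12, factor XII, fell by 0.24 and 0.45 in the Atg7 knockout, a mean of -0.34 with an adjusted p of 0.0359. That call was lost in 6 of the 15 alternatives, among them the deposited log ratios and the omission of experiment 1, 2, 4 or 5. The mean of F12 in the double knockout was -0.003.

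F11, factor XI, which factor XII activates, differed between the sets of experiments before any genotype was compared. In wild-type liver the log2 signal spanned 11.01 to 11.18 over the first 3 experiments but 10.20 to 10.25 over the others. The Atg7 knockout gave 10.06 and 10.03, the double knockout 9.72 and 9.69, and the Nrf2 knockout 11.02 and 9.86. Within each of the Atg7 genotypes the knockout signals thus lay within 0.1 of each other across the sets, while their wild-type partners did not. The log2 ratio in the double knockout was -1.45 in experiment 3 and -0.51 in experiment 6 (mean -0.98 ± 0.27, SE, n = 2, adjusted p = 0.0418), a call lost with no filter on dim probes and without experiments 1, 3 or 4. In the Atg7 knockout the ratios were -0.95 and -0.22, and the mean of -0.58 did not pass (adjusted p = 0.15).

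F11 and Klkb1 are neighbours, with their probes 30.9 kb apart on chromosome 8 of the mm9 assembly. F7, F10 and Proz also lie side by side on chromosome 8, with 20.5 kb between the probes of F7 and F10 and 20.1 kb between those of F10 and Proz. The Hrg and Kng1 probes are 116.9 kb apart on chromosome 16. All 7 of these genes had negative log2 ratios in both Atg7 knockout experiments. So did other members: 20 of the 33 genes had a negative mean there, and all 33 kept 1 sign in both experiments. The shared direction is therefore not read as a trait of neighbours.

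Promoter sequence was read from RefSeq for the build GRCm38.p6, which differs from the build of the array, and 25 of the 33 genes matched an entry. The 250 bases before the start site are shown for 5 genes: the neighbours F11 and Klkb1, F9 with 2 hepatocyte motifs, and F2r and Procr, which rose in the Atg7 knockout. Capitals mark the motifs searched on both strands. These were CAAAGTNCA for HNF4, TGTTTAC for the FOXA factors and TTGCNNAA for C/EBP, all regulators of hepatocyte genes, and TGACNNNGC, the core of the antioxidant response element that Nrf2 binds.
F11, GRCm38.p6 chr8:45262032-45262281, minus strand: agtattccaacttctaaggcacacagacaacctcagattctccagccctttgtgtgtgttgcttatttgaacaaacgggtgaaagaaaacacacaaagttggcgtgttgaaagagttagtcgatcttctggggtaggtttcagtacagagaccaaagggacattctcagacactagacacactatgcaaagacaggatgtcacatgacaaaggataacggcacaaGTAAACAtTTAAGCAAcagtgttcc
Klkb1, GRCm38.p6 chr8:45294836-45295085, minus strand: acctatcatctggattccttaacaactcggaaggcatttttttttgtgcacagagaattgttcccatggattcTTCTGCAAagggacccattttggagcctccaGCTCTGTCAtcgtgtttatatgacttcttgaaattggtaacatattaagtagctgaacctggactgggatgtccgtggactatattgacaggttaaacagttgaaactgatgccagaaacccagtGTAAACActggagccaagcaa
F9, GRCm38.p6 chrX:59999214-59999463, plus strand: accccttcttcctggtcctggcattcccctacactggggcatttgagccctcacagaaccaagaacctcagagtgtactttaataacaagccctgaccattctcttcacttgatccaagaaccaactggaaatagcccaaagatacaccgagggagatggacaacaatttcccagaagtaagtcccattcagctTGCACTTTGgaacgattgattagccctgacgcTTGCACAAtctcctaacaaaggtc
F2r, GRCm38.p6 chr13:95618467-95618716, minus strand: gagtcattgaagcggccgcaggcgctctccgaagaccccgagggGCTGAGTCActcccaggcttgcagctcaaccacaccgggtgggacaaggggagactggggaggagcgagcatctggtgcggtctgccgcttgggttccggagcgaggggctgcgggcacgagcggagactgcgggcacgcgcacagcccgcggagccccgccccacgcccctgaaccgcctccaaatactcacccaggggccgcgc
Procr, GRCm38.p6 chr2:155750967-155751216, plus strand: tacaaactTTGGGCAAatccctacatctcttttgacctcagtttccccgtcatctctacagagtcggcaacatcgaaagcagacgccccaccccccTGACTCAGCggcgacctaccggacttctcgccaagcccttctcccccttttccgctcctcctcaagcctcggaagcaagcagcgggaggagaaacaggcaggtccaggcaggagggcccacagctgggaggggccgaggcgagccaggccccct
F11 and Klkb1 each held a FOXA match close to the start, beginning at positions -25 and -21, and a C/EBP match, at -17 in F11 and -177 in Klkb1. F9 held the HNF4 match at -56 and a C/EBP match at -24. F2r held the antioxidant response element core at -206 and Procr at -154. Among 32851 promoters of the same length, 9.56% held the C/EBP motif, 3.17% FOXA, 1.19% HNF4 and 10.2% the antioxidant response element core. Of the 25 genes, 7 held C/EBP (F11, F9, Ggcx, Hrg, Klkb1, Plaur, Procr), 3 FOXA (F11, Klkb1, Vkorc1), 1 HNF4 (F9) and 4 the antioxidant core (F2r, Klkb1, Procr, Serpind1). A match describes letters and is not evidence of binding.

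Clot cross-linking is the work of factor XIII, whose catalytic A chain is made mainly by blood cells and macrophages and whose carrier B chain is made by hepatocytes. F13b, the B chain, fell by 0.56 and 0.95 in the Atg7 knockout (mean -0.76, adjusted p = 0.0112, lost without experiment 5). It fell by 0.84 and 0.53 in the double knockout (mean -0.68, adjusted p = 0.0159, lost without experiment 3). F13a1, the A chain, was above background only in these livers, with log2 signals of 6.18 and 6.28 in the Atg7 knockout and 7.39 and 6.57 in the double knockout, against 5.87 to 6.10 in wild type. Its mean signal was 1.25-fold that of wild type in the Atg7 knockout and 1.99-fold in the double knockout. F13a1 was called only in the double knockout. It passed the filter only through the Atg7-deficient livers, so that call is no support for the rise. Wild type was not above background, so these ratios rest on wild-type signals near the floor.

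Of the vitamin K cycle, Ggcx and Vkorc1 fell in both Atg7-deficient genotypes. Ggcx, the carboxylase that modifies factors II, VII, IX and X and proteins C, S and Z, had ratios of -0.46 and -0.28 in the Atg7 knockout and -0.34 and -0.34 in the double knockout. Its means were -0.37 (adjusted p = 0.00675) and -0.34 (adjusted p = 0.0091, lost without experiments 3 or 6). Vkorc1, the epoxide reductase that warfarin blocks, had means of -0.60 (adjusted p = 0.00333) and -0.51 (adjusted p = 0.00553, lost without experiment 3), with all 4 experiments between -0.69 and -0.49. Its paralogue Vkorc1l1, which is not among the 33 genes, was called higher in the Atg7 knockout (0.22, adjusted p = 0.0374), was at -0.17 in the double knockout (adjusted p = 0.0848) and was called lower in the double knockout on the direct arrays (-0.48, adjusted p = 0.0305).

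The anticoagulant genes split. Of 9, 4 were called lower and 3 higher in the Atg7 knockout, and 4 lower and 3 higher in the double knockout. Of all tested genes, 16.3% were called lower and 23.4% higher in the Atg7 knockout, and 16% and 21.4% in the double knockout. With only 9 genes, the number called higher is not read as a trait of this role. Proz, protein Z, the cofactor for inhibition of factor X, had log2 signals of 11.41 and 11.43 in the Atg7 knockout, against 12.94 and 13.07 in the wild-type partners, and 11.82 and 12.27 in the double knockout, against 12.85 and 12.86. The Atg7 knockout signals were lowest and the double-knockout signals lay between them and the 6 wild-type values of 12.54 to 13.07. The ratios were -1.58 ± 0.11 (SE, n = 2, adjusted p = 0.00102) and -0.81 ± 0.11 (adjusted p = 0.00448), and both calls held under each alternative run. The other 2 Proz probes, which were dimmer, gave -0.71 and -0.60 in the Atg7 knockout and -0.51 and -0.49 in the double knockout, so that the size of the fall depended on the probe.

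Serpinc1, antithrombin, fell by 0.69 and 1.26 in the Atg7 knockout (mean -0.97, adjusted p = 0.00664) and by 0.68 and 0.86 in the double knockout (mean -0.77, adjusted p = 0.0139, lost with the deposited log ratios and without experiments 3 or 6). Proc, protein C, fell by 0.87 and 0.89 in the Atg7 knockout (mean -0.88, adjusted p = 0.006, lost without experiment 5). It fell in the double knockout by 0.85 and 0.29 (mean -0.57, adjusted p = 0.0231, lost with the deposited log ratios and without experiments 1, 3 or 4). The dye orientations differed for Serpinc1, whose double-knockout arrays of experiment 6 gave -0.01 and -1.71. Serpind1, heparin cofactor II, fell by 0.81 and 0.78 in the Atg7 knockout (mean -0.80, adjusted p = 0.00165). Its double-knockout arrays of experiment 6 gave 0.19 and -0.49. Its double-knockout mean of -0.28 had an adjusted p of 0.0318, which was lost in 8 of 15 alternatives, among them slide as a block and the omission of any of experiments 1 to 5.

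The anticoagulants that rose included cell-surface receptors. Procr, the endothelial protein C receptor, had log2 signals of 7.62 and 8.80 in the Atg7 knockout and 8.93 and 8.63 in the double knockout, against 6.54 to 6.89 over the 6 wild-type values and 6.61 and 6.71 in the Nrf2 knockout. All 4 Atg7-deficient signals were thus above every wild-type value, and the ratios were 1.52 ± 0.21 (SE, n = 2, adjusted p = 0.00499) and 1.93 ± 0.21 (adjusted p = 0.00267). Both calls held under each alternative run. Pros1, protein S, the cofactor of protein C, rose by 0.54 and 0.57 in the Atg7 knockout (mean 0.55, adjusted p = 0.00573, lost without experiment 5) and by 0.48 and 0.70 in the double knockout (mean 0.59, adjusted p = 0.00484). Proc and Pros1, an enzyme precursor and its own cofactor, therefore changed in opposite directions in both genotypes.

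Thbd, thrombomodulin, the receptor that turns thrombin into an activator of protein C, rose by 0.65 and 0.70 in the Atg7 knockout (mean 0.67 ± 0.05, SE, n = 2, adjusted p = 0.00113). Double-knockout ratios of 0.04 and 0.14 had a mean of 0.09 and an adjusted p of 0.199. Serpina10, the protein Z-dependent protease inhibitor, had ratios of 0.28 and 0.13 in the Atg7 knockout (adjusted p = 0.391) and rose by 1.30 and 0.55 in the double knockout (mean 0.93, adjusted p = 0.0121). A second, dimmer Serpina10 probe gave -0.24 and 0.24 in the same genotypes, so the probes disagreed. Protein Z and its partner inhibitor had ratios of opposite sign in both genotypes on the probes used. Tfpi, tissue factor pathway inhibitor, was close to background. Its mean signal was 1.08-fold that of wild type in the Atg7 knockout and 1.02-fold in the double knockout, and it was called in neither.

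Of the 9 endothelial markers fixed for comparison, 2 were called higher in the Atg7 knockout (median over the 9 0.01), and 1 higher and 4 lower in the double knockout (median -0.28). Of all tested genes, 23.4% were called higher in the Atg7 knockout, and 21.4% higher and 16% lower in the double knockout. The 9 ratios ran from -0.295 to 1.194 in the Atg7 knockout and from -0.772 to 0.565 in the double knockout. The part of endothelial content in the values of Thbd, Procr and Plat was not tested.

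**Figure D2:**
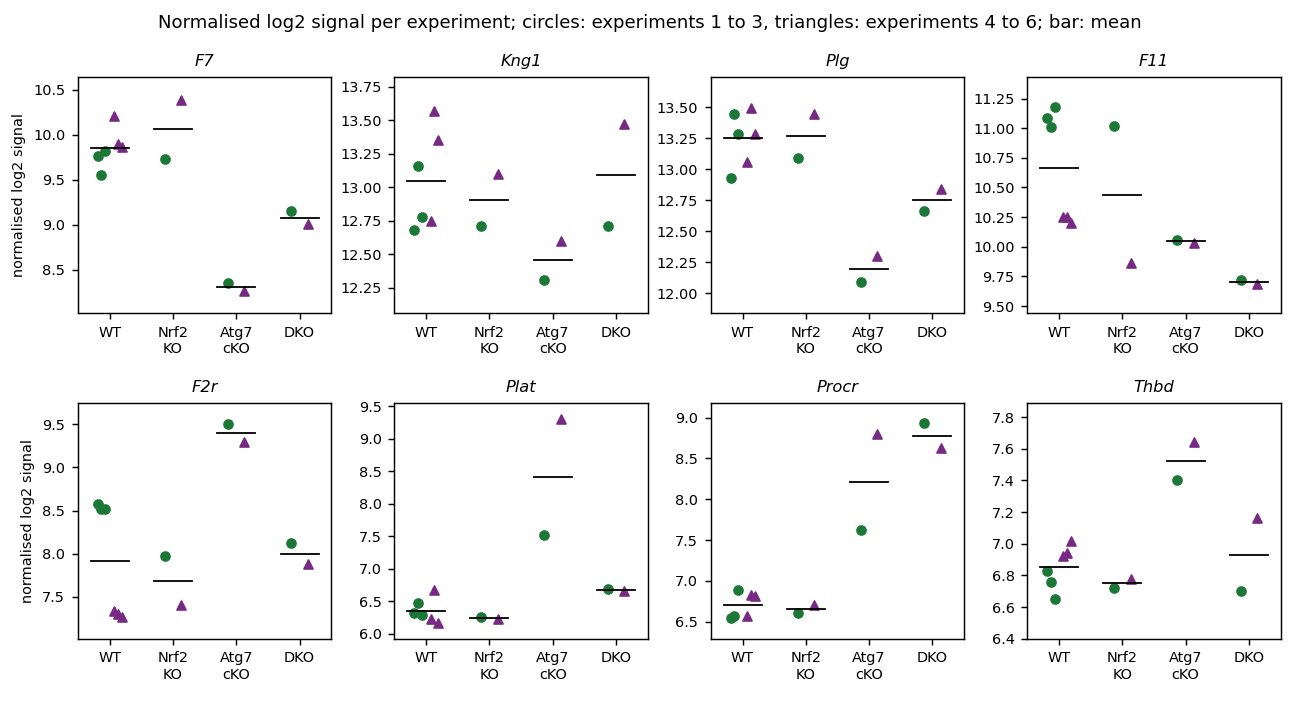
Normalised log2 signal of 8 of the genes in experiments 1 to 6, by genotype, with circles for experiments 1 to 3, triangles for experiments 4 to 6 and a bar at the mean. The y axis differs between panels and does not start at 0. F11 and F2r wild-type values fall into separate groups by set, while all 4 Procr values of the Atg7-deficient genotypes are above every wild-type value.

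Fibrinolysis genes also moved both ways. Plg, plasminogen, the precursor of the clot-dissolving protease, had log2 signals of 12.09 and 12.30 in the Atg7 knockout and 12.66 and 12.84 in the double knockout, against 12.93 to 13.49 in wild type. Every Atg7-deficient signal was below every wild-type value, and the double-knockout signals were the nearer. The ratios were -1.27 ± 0.08 (SE, n = 2, adjusted p = 0.000917) and -0.53 ± 0.08 (adjusted p = 0.007, lost without experiment 3). Serpinf2, alpha-2-antiplasmin, which blocks plasmin, fell by 0.68 and 0.37 in the Atg7 knockout (mean -0.53, adjusted p = 0.0118, lost without experiment 2). Its double-knockout mean of -0.17 did not pass (adjusted p = 0.219).

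Plat, tissue-type plasminogen activator, had log2 signals of 7.51 and 9.30 in the Atg7 knockout, against 6.17 to 6.67 over the 6 wild-type values, 6.26 and 6.22 in the Nrf2 knockout and 6.68 and 6.65 in the double knockout. The Atg7 knockout signals were above every wild-type value and differed widely from each other, while the double-knockout signals were level with the highest wild-type value. The ratios were 1.04 and 2.63 (mean 1.83 ± 0.35, SE, n = 2, adjusted p = 0.0131). A second, dimmer Plat probe gave 0.94. In the double knockout the ratios were 0.39 and 0.47 (mean 0.43, adjusted p = 0.383). The deposited log ratios had a mean of 1.25 and were called (adjusted p = 0.0308), as was the offset value without experiment 2 or 5, while the second probe gave 0.06. Plaur, the urokinase receptor, had log2 signals of 7.19 and 7.99 in the Atg7 knockout and 7.26 and 6.78 in the double knockout, against 5.98 to 6.49 in wild type. It rose by 1.18 (adjusted p = 0.00395) and 0.73 (adjusted p = 0.0173, lost without experiments 3 or 6). A second, dimmer Plaur probe gave 0.70 and 0.30 in the same genotypes, so the size of the rise depended on the probe. Plau, urokinase itself, was dim, with log2 ratios of 0.05 to 0.25 in the Atg7-deficient livers, and was not called. It passed the filter only with the channels of these livers.

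Cpb2, the fibrinolysis inhibitor TAFI, rose by 1.098 and 1.003 in the Atg7 knockout (mean 1.05, adjusted p = 0.0153), a call lost without experiments 2 or 5. In the double knockout its log2 signal was 13.67 in experiment 3 and 12.68 in experiment 6, against 12.77 and 12.72 in the wild-type partners. The first double-knockout signal thus matched the Atg7 knockout signals of 13.73 and 13.69 and the second lay within the wild-type range of 12.63 to 12.77. The mean ratio of 0.42 did not pass (adjusted p = 0.175).

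F2r, the thrombin receptor PAR1, showed the widest difference between the sets of experiments among the 33 genes. In wild-type liver its log2 signal was 8.52 to 8.57 over the first 3 experiments, against 7.26 to 7.33 over the last 3. The Atg7 knockout gave 9.5 and 9.29, the double knockout 8.12 and 7.88, and the Nrf2 knockout 7.97 and 7.40. The Atg7 knockout signals were above all wild-type values, whereas the double-knockout and Nrf2 knockout signals lay between the wild-type groups. The Atg7 knockout ratios were 0.98 and 1.99 (mean 1.49 ± 0.35, SE, n = 2, adjusted p = 0.0244, lost without experiment 5). In the double knockout the ratios took opposite signs, -0.40 and 0.62 (mean 0.11, adjusted p = 0.829). In the Nrf2 knockout they were -0.59 and 0.07. For F11, F2r, F3, Klkb1, Proc and Serpinf2 the wild-type signals of experiments 1 to 3 all lay above those of experiments 4 to 6. For F7, F9, Plau and Thbd they all lay below. The share of all tested genes with such a split was not counted, so it is not read as a trait of the 33 genes. The means differed by more than 0.5 for F11 and F2r. Experiments 3 and 4 shared a slide, and on it the wild-type signals were 11.18 and 10.25 for F11 and 8.52 and 7.33 for F2r. The sets differ in sex-linked transcripts, and the part of sex in these values was not tested.

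The direct arrays asked what loss of Nrf2 changed in Atg7-deficient liver. Their log ratios came from the deposited table alone, in which dim genes had wider ratios than after the offset used against wild type. F3, for example, had deposited ratios of -0.93 and -0.72 in the double knockout against wild type, where it was called, and -0.09 and -0.09 with the offset, where it was not. The 6 genes called higher in the double knockout were Kng1 (0.79 and 0.90 in the 2 experiments, mean 0.84), F7 (0.64 and 0.94, mean 0.79), Proz (0.43 and 0.95, mean 0.69), Plg (0.72 and 0.64, mean 0.68), F10 (0.42 and 0.72, mean 0.57) and Serpind1 (0.39 and 0.51, mean 0.45). All 6 are secreted hepatocyte products that were called lower in the Atg7 knockout against wild type. Their adjusted p-values ran from 0.00957 for Kng1 to 0.0384 for Proz, with standard errors of 0.09 to 0.16. The call of Proz was lost in 11 of 14 alternatives, among them the mean over its probes (0.355), and its dimmer probes gave 0.22 and 0.15.

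The 3 genes called lower in the double knockout were Plat (-1.38 and -3.16, mean -2.27 ± 0.47, SE, n = 2, adjusted p = 0.0295), F3 (-1.19 and -0.81, mean -0.997, adjusted p = 0.0111) and Thbd (-1.09 and -0.71, mean -0.90, adjusted p = 0.0112). F2r had ratios of -1.67 and -1.43 and an adjusted p of 0.0618. F13a1 had ratios of 3.11 and 0.92 (adjusted p = 0.0991), Procr of 1.78 and -0.14, and Plaur of -0.01 and -1.57, so that the experiments differed widely for these genes. Ggcx (0.05 and 0.03) and Vkorc1 (-0.08 and 0.15) stayed near 0.

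These calls rested on few experiments. With experiments 7 and 8 alone in the fit, 0 of the 33 genes and 106 of all tested genes were called by limma. Leaving out experiment 7 left 1 call (Plat), leaving out experiment 8 left 5, of which 2 (F3 and Thbd) were among the original 9, and leaving out experiment 1 or 4 left 5. None of the 9 calls held under each alternative.

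The same difference can be formed from experiments 2, 3, 5 and 6 through the shared wild-type partner. There Kng1 (0.93, adjusted p = 0.032) and Plg (0.74, adjusted p = 0.0357) were called higher and Thbd (-0.58, adjusted p = 0.0209) lower in the double knockout, 3 of 33 genes against 4.98% of all tested genes (1.75% higher, 3.23% lower). Each of these calls was lost with slide as a block, with the deposited log ratios and on leaving out any 1 experiment. Within experiments 1 to 3 the difference was 0.76 for Kng1, 0.73 for Plg and -0.61 for Thbd, and within experiments 4 to 6 it was 1.1, 0.76 and -0.56. F2r differed by -1.38 and -1.37 within the sets, which is steadier than its ratios to wild type, but over the 2 sets it did not pass (adjusted p = 0.193). With the set as a block, 7 of the 33 genes, including F2r, and 1412 of all 16425 tested genes were called.

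Whether Nrf2 loss acted differently with and without Atg7 was tested as an interaction on the log2 scale. None of the 33 genes was called, against 0.749% of all tested genes (0.14% higher, 0.609% lower), and 8 had an unadjusted limma p below 0.05. The lowest adjusted p was 0.11, for Thbd (interaction -0.46), followed by 0.151 for Kng1 (0.75) and 0.178 for F10 (0.60).

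Of 31 other genes of the pathway listed for comparison, 23 were tested. In the Atg7 knockout 10 of them were called higher and 11 lower, in the double knockout 10 higher and 8 lower, and on the direct arrays 6 higher and 4 lower. Of all tested genes, 23.4% were called higher and 16.3% lower in the Atg7 knockout. The shares were 21.4% and 16% in the double knockout and 6.75% and 8.06% on the direct arrays. In the Nrf2 knockout none of the 23 was called, against 0.0122% of all tested genes. The fibrinogen chains, the substrate of thrombin, changed side between the genotypes. Fga, Fgb and Fgg were lower by -1.15, -1.04 and -1.78 in the Atg7 knockout and higher by 0.79, 1.02 and 0.87 in the double knockout, and on the direct arrays they were higher in the double knockout by 1.92, 1.91 and 2.49. Both experiments of each comparison agreed in sign for each chain. The clotting precursors F2, F7 and F9, by contrast, had negative ratios in both genotypes. The double-knockout calls of Fga and Fgg were lost without experiment 3, and that of Fgg also without experiment 6 and with slide as a block.

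Serping1, the C1 inhibitor that also restrains contact proteases, was lower by -0.49 in the Atg7 knockout and higher by 1.02 in the double knockout. Fgl1, a fibrinogen-like liver protein, rose by 1.58 and Fgl2, a membrane prothrombinase, by 1.97 in the double knockout, and both were higher on the direct arrays (2.48 and 1.95). Nqo1, a quinone reductase and Nrf2 target, was higher by 2.23 in the Atg7 knockout and lower by -0.76 in the double knockout. S100a10, which with Anxa2 forms a cell-surface receptor for plasminogen and its activator, took the same course (1.09 and -0.67), whereas Anxa2 was higher in both (2.17 and 1.69). Tgm2, tissue transglutaminase, was higher in both (1.80 and 2.65) and Apoh, beta-2-glycoprotein I, lower in both (-1.21 and -0.91). Gas6, a vitamin K-dependent growth factor, was higher in the Atg7 knockout by 1.12, a call lost on leaving out any 1 of the experiments with wild type. Serpina5, protein C inhibitor, was higher by 0.73 in the Atg7 knockout and at -0.005 in the double knockout, and its direct ratio was -4.58 in the deposited table. Serpina5 was not well above background in every channel, and the deposited ratios were not shrunk by the offset, so these values differ in scale. Over the alternatives its Atg7 knockout ratio ran from 0.63 to 3.28, and its difference through wild type from -3.72 to -0.63.

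**Figure D3:**
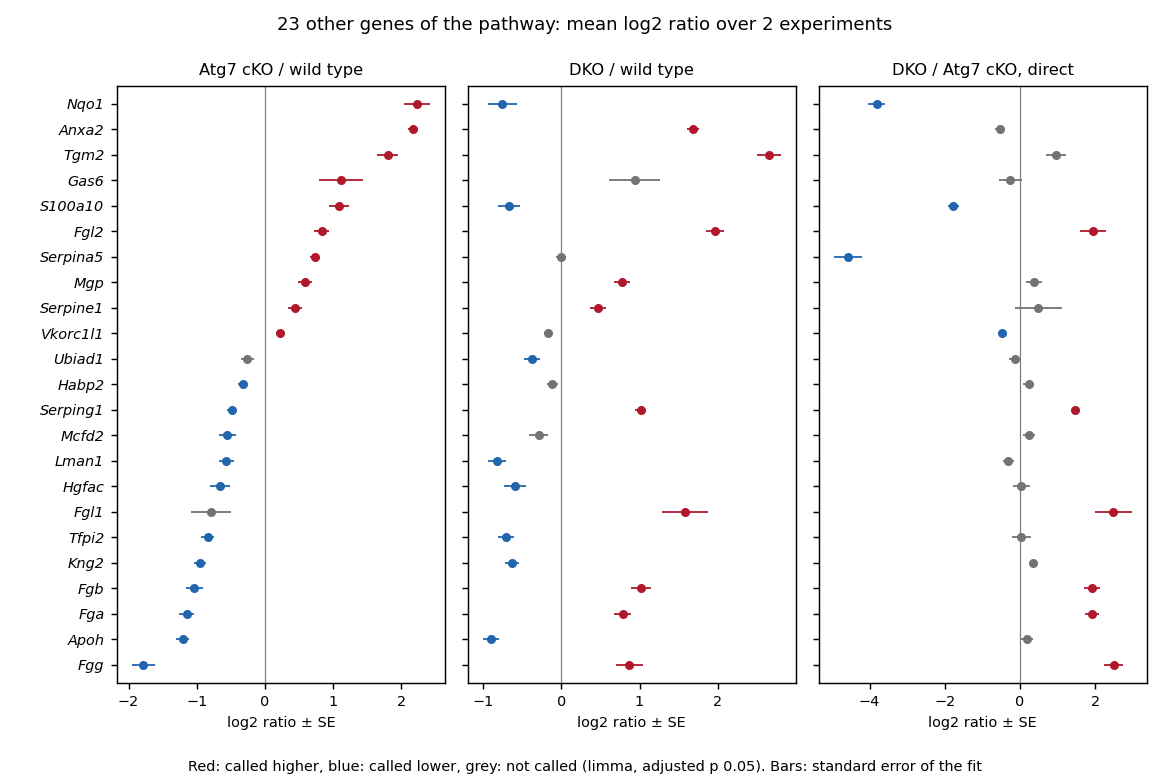
Mean log2 ratio of 23 other pathway genes in the Atg7 knockout, in the double knockout and between both on the direct arrays, with bars for the standard error of the fit and colours as in the plot of the 33 genes. The x axes differ between panels. The 3 fibrinogen chains lie left of 0 in the first panel and right of 0 in the others.

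Of 14 hepatocyte transcription factors, 9 were called lower and none higher in the Atg7 knockout (median -0.53), and 8 lower and 1 higher in the double knockout (median -0.52). The lower ones included Hnf4a (-0.47 and -0.62) and Cebpa (-0.90 and -1.21), whose motifs were searched above. The one that was higher was Cebpb, at 1.67 in the double knockout. The FOXA motif was searched too, but Foxa1 (-0.03 and -0.14) and Foxa3 (-0.09 and 0.41) were called in neither genotype. Foxa2 (-0.60 and -0.92) was called only in the double knockout. Any link between these factors and the 33 genes was not tested. Of all tested genes, 23.4% were called higher and 16.3% lower in the Atg7 knockout, and 21.4% and 16% in the double knockout. The share called higher on the direct arrays was 6.75%. Among platelet markers, 4 of 8 were tested, of which 1 was called higher in the Atg7 knockout and 3 in the double knockout. On the direct arrays 2 of the 4 were called higher, and the 4 ratios ran from 0.327 to 2.323. The part of platelets or megakaryocytes in the F13a1 signal was not tested.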

How the data were processed

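The members and the gene lists were chosen with earlier results of these data known. Total RNA was labelled with Cy3 and Cy5, and 12 of the 16 arrays came with scanner tables made with Feature Extraction 9.5.1.1, per the file headers (9.5.1 per the submitters' processing notes). From these, the deposited mean signal intensity and median background intensity were used. The deposited value table holds log10 ratios of Cy5 over Cy3, which matched the scanner tables' own log10 ratio within 0.005 on the 12 arrays. It was the only source for experiments 7 and 8, whose scanner tables were not used here. The scale and direction of those columns follow from that match and from the dyes per the labels.

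With limma 3.58.1 in R 4.3.3, intensities were corrected by normexp (offset 50) and loess-normalised within arrays, without control spots and spots marked as outliers. Signs were set so that a positive ratio means more signal in the knockout, and both arrays of each experiment were averaged. The offset shrinks log2 ratios of dim genes. Genes were represented by their brightest probe. Group means over experiments 1 to 6 (direct comparison: 1 to 8, log2 of the deposited ratios) shared 1 spread, with 3 and 4 residual degrees of freedom, and p-values were Benjamini-Hochberg adjusted over 16425 genes. Slides held experiments 1 and 2, 3 and 4, and 5 and 6. The fit was tested on simulated data. Alternatives changed the offset, ratios, filter, probe rule, names, slide or set block and dye handling, or left out each experiment. All 33 genes are named, and other pathway genes where called with a log2 ratio of at least 1 in size. The values of 1 listed gene and 1 motif are not reported here.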

Additional observations from a re-analysis of the deposited data

Results flagged for a closer look

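Serping1 was picked out because the change with loss of Nrf2 differed between liver with and without Atg7: its interaction was 1.41 (log2, limma adjusted p = 0.0287), and it was no longer called in 7 of the 15 alternatives. The highest of the 6 wild-type signals of F13a1, 6.1 in experiment 3, stood apart from the next highest, 5.93, by more than the Dixon limit for 6 values. It was 1 of 33 genes so examined, and chance alone picks out about 1 in 20. F13a1 was not well above background in wild type, and the double-knockout liver of experiment 3 also had the higher of the double-knockout signals, 7.39.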

How the results depend on the processing

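Of the 25 calls in the Atg7 knockout, 17 held in each of the 15 alternatives that tested them, and of the 20 in the double knockout 6 did (F13a1, Klkb1, Procr, Pros1, Proz and Serpina10). F13a1 was tested only through its knockout channels, so its call is no support. Under the strictest filter 28 of the 33 genes were tested, without F13a1 and 4 others. No called gene changed direction under any alternative. In the Nrf2 knockout the count was 0 under every alternative. Leaving out 1 experiment gave 18 to 26 calls in the Atg7 knockout and 7 to 21 in the double knockout, with 7 on leaving out experiment 3. For the direct arrays the range was 1 to 7, and the count was 15 with single arrays, a dye effect and the experiment as a random block and 0 with experiments 7 and 8 alone. The difference through wild type gave 0 to 3 on leaving out 1 experiment, 0 with the deposited log ratios, 0 with slide as a block, 7 with the set of experiments as a block and 11 with single arrays. The interaction gave 0 to 1 on leaving out 1 experiment, 1 with the set as a block (F2r) and 4 with single arrays (F10, F13a1, Proz and Serpina10). Alternatives for the difference through wild type, the interaction and the other pathway genes were chosen after seeing the data. Over all genes, comparisons and alternatives, 2711 values of the 33 genes kept their side of the threshold, 130 lost and 66 gained a call. The groups share no replicate numbers. With the set of experiments as a block, the counts were 25 in the Atg7 knockout and 21 in the double knockout. The counts over all 16425 tested genes moved too. In the main fit 2432 were called on the direct arrays, 818 through wild type and 123 for the interaction. Single arrays called 4213, 2452 and 1192 in the same order. The set as a block called 1412 through wild type and 334 for the interaction. Leaving out experiment 3 also lowered the count over all tested genes in the double knockout. The number of arrays limits the precision, and F3, F13a1, Plau, Plaur and Tfpi were not well above background in every channel.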
